A study of Homo sapiens with 23 samples.

Results

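The integrated stress response is the programme by which cells lower general protein synthesis and raise translation of the transcription factor ATF4 when amino acids run short, the endoplasmic reticulum is stressed or mitochondria fail. Kinases that phosphorylate the initiation factor eIF2 start it, and ATF4, paired with C/EBP family partners, then drives genes for amino acid transport, serine and asparagine synthesis, mitochondrial one-carbon metabolism and the charging of tRNAs. ATF4 itself is controlled largely at translation, which messenger RNA levels do not show. The 39 genes described here are ATF4 pathway genes, serine and one-carbon enzymes, amino acid transporters and cytosolic tRNA synthetases. They were chosen by name, with earlier results of these data known. All 39 were found among the 21463 gene rows of the authors' deposited table.

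PC-3 is an established human prostate cancer cell line. The cells carried a lentiviral cassette with cDNA of PARG, the hydrolase that takes poly(ADP-ribose) off proteins, joined to a cleavable mClover3 fluorescent protein and driven by the doxycycline-inducible TetOne promoter. Both lines, I4 and H6, are single clones of the transduced cells, so each stands for 1 clone. They were kept in RPMI-1640 with serum and added non-essential amino acids. Wells received 500 ng/ml doxycycline or none, for 72 h. Experiment N was run at passage 5 and experiment B at passage 7, with different library kits and sequencing centres. Each clone had 3 wells with doxycycline per experiment, against 3 without, except for 2 untreated wells of H6 in experiment B. That makes 23 libraries in 8 groups. Cells without the cassette were not analysed here, so an effect of doxycycline itself cannot be told apart from one of PARG.

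The 4 comparisons of doxycycline with none are written I4-N, H6-N, I4-B and H6-B, after the clone and the experiment. For each, the authors' deposited table gives the higher of both group means on the RPKM scale (reads scaled to exon length and library depth), a signed fold change and an adjusted p, called q here. It holds no value per library, so no SD and no value per well can be given, and the lower mean is the one that the fold implies. A gene is called when q is under 0.05, and "rose" and "fell" are used of called genes alone. Depth was worked out from the step that a single read makes in the lowest genes. It was 33.7 M to 43.2 M reads in experiment N and 19.2 M to 26.5 M in experiment B. Steps were found for all libraries but 1 or more of I4 in experiment N. There a treated and an untreated step both gave 38.5 M reads and may come from the same library. PARG, by the authors' deposited table, was 1.35-fold (I4-N), 2.15-fold (H6-N), 1.40-fold (I4-B) and 1.99-fold (H6-B) higher, and every direction given here rests on its sign. As higher group means of the authors' deposited table, the epithelial keratin KRT18 had 101.2 to 127.1 RPKM and the epithelial gene EPCAM 4.77 to 5.66 RPKM. KRT18 itself rose in all 4 comparisons, 1.20-fold to 1.31-fold. Of 2 markers of other cell types, the leukocyte marker PTPRC had at most 0.0515 RPKM. The other, PECAM1, had 0.719 to 1.34 RPKM and fell in 3 comparisons.

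The 39 genes did not move as a block. By the calls of the authors' deposited table, 19 were called in no comparison, 7 in 1, 9 in 2, 3 in 3 and CEBPB in all 4 (48.7%, 17.9%, 23.1%, 7.69% and 2.56%). Of 10324 genes of at least 1 RPKM, 61.2% were called in none, 18.8% in 1, 10.9% in 2, 4.12% in 3 and 5.05% in all 4. In I4-N, 3 of the 39 rose and 11 fell (7.69% and 28.2%), where 10.3% of all genes of at least 1 RPKM rose and 12.5% fell. In H6-N, 7 rose and 6 fell (17.9% and 15.4%), against 9.87% and 10.5% of all genes. In I4-B, 1 rose and 6 fell (2.56% and 15.4%), against 10.3% and 9.14%. In H6-B, 3 rose and 1 fell (7.69% and 2.56%), against 5.03% and 5.46%. The share that fell was thus above the background in 3 comparisons and under it in H6-B. The share that rose was above the background in H6-N and H6-B and under it in I4-N and I4-B. In H6-N both shares were above the background, and more of the 39 rose than fell. The 39 genes had median levels of 17.6 to 23.4 RPKM, against 8.50 to 8.86 RPKM for all genes of at least 1 RPKM.

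Most folds were small. The median size was 1.07-fold to 1.11-fold over the 39 genes, against 1.08-fold to 1.09-fold over all genes of at least 1 RPKM. Among genes at 10 to 100 RPKM with a log2 fold of 0.1 to 0.2 in size, 5.40% were called in I4-N, 4.05% in H6-N, 1.52% in I4-B and 0 of 1266 in H6-B. At a log2 fold of 0.2 to 0.3 the shares were 76.5% in I4-N, 86.8% in H6-N, 90.1% in I4-B and 41.3% in H6-B. Differences of under 1.15-fold were therefore seldom detectable, and H6-B, with the fewest wells, called the smallest share.

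**Figure D1:**
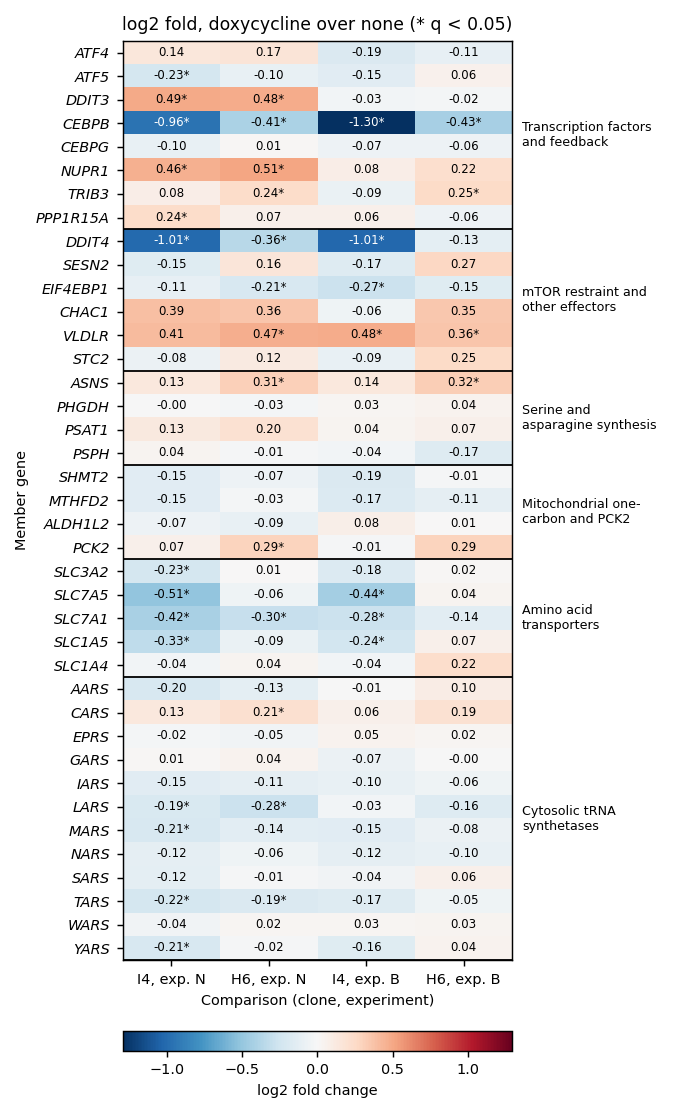
Each cell gives the log2 fold (doxycycline over none) of 1 gene (rows, grouped by role) in 1 comparison (columns), and a star marks a q under 0.05. CEBPB and DDIT4 in clone I4 have the most negative values, and CEBPB has a star in every column.

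Among the transcription factors and feedback genes, the central factor was not called. ATF4, the main activator of the programme, was 1.10-fold higher in I4-N, 1.12-fold higher in H6-N, 1.14-fold lower in I4-B and 1.08-fold lower in H6-B in the authors' deposited table, with q from 0.0523 to 0.673. Its close relative ATF5 was 1.17-fold lower in I4-N (q = 0.0111) in the authors' deposited table and was called in no other comparison. NUP62, on the opposite strand, covers 21.2% of the exon bases of ATF5 in GENCODE v29 and was 1.15-fold lower in I4-N; its part in the result was not tested. CEBPG, a dimer partner of ATF4, lay within 1.07-fold in all 4 comparisons of the authors' deposited table.

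CEBPB, a C/EBP factor active in inflammation and differentiation, fell in all 4 comparisons. In I4-N of the authors' deposited table it had 21.6 RPKM with doxycycline, against 41.9 RPKM without (1.94-fold lower, q listed as 0). In H6-N it had 41.9 RPKM with doxycycline, against 55.6 RPKM without (1.33-fold lower, q = 1.86e-07 in the authors' deposited table). In I4-B it had 7.88 RPKM with doxycycline, against 19.4 RPKM without (2.46-fold lower, q listed as 0 in the authors' deposited table). In H6-B it had 17.3 RPKM with doxycycline, against 23.3 RPKM without (1.35-fold lower, q = 3.47e-05 in the authors' deposited table). It was the only one of the 39 to fall in all 4, where 2.68% of 10324 genes of at least 1 RPKM did so; none of the 39 rose in all 4, against 2.31%. CEBPB (ENSG00000172216) has a single exon on chromosome 20 of GRCh38, from 50190734 to 50192689 on the plus strand.

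DDIT3, which encodes the pro-apoptotic factor CHOP, and NUPR1, a small stress-induced nuclear protein, rose in both clones in experiment N and were not called in experiment B. In the authors' deposited table DDIT3 had 9.51 RPKM with doxycycline, against 6.79 RPKM without, in I4-N (1.40-fold higher, q = 0.0171). In H6-N it had 12.9 RPKM with doxycycline, against 9.26 RPKM without (1.39-fold higher, q = 0.000498 in the authors' deposited table). In experiment B DDIT3 was 1.02-fold lower in both clones of the authors' deposited table, without a call. NUPR1 was 1.37-fold higher in I4-N (q = 0.0158) and 1.43-fold higher in H6-N (q = 0.000209), and 1.06-fold and 1.16-fold higher in I4-B and H6-B (q = 0.96 and 0.567), in the authors' deposited table. The difference between experiments was not tested, and passage, depth, kit and centre changed with it and cannot be told apart. Libraries of experiment N keep no strand, and MARS, on the opposite strand, covers 355 of the 1307 exon bases of DDIT3 (27.2%) in GENCODE v29. The higher group mean of MARS was 49.3 RPKM in I4-N and 48.2 RPKM in H6-N, against 9.51 and 12.9 RPKM for DDIT3. MARS was itself 1.15-fold lower in I4-N and 1.10-fold lower in H6-N of the authors' deposited table, the opposite direction to DDIT3. MBD6, also on the opposite strand, covers 4.44% of these bases and had the direction of DDIT3. It was 1.11-fold higher in I4-N, 1.08-fold higher in H6-N and 1.03-fold lower in both clones of experiment B. The part of these overlaps in the result was not tested.

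TRIB3, a pseudokinase that restrains ATF4, rose in both experiments in H6. It had 21.2 RPKM with doxycycline, against 18.0 RPKM without, in H6-N (1.18-fold higher, q = 0.00999 in the authors' deposited table). In H6-B it had 17.0 RPKM with doxycycline, against 14.3 RPKM without (1.19-fold higher, q = 0.0461 in the authors' deposited table). It was 1.06-fold higher in I4-N and 1.06-fold lower in I4-B, without a call, and the difference between clones was not tested. PPP1R15A, the eIF2 phosphatase subunit GADD34 that helps end the response, rose 1.18-fold in I4-N (q = 0.00951) and lay within 1.05-fold elsewhere in the authors' deposited table.

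The stress effectors held a further large fall and a rise called in 3 comparisons. DDIT4, also called REDD1, inhibits the growth kinase mTORC1. In I4-N of the authors' deposited table it had 9.12 RPKM with doxycycline, against 18.3 RPKM without (2.01-fold lower, q listed as 0). In I4-B it had 4.48 RPKM with doxycycline, against 9.04 RPKM without (2.02-fold lower, q listed as 0 in the authors' deposited table). The fall in clone I4 thus had nearly the same size in both experiments. In H6 it had 16.1 RPKM with doxycycline, against 20.7 RPKM without, in H6-N (1.29-fold lower, q = 0.00861), and was 1.09-fold lower in H6-B (q = 0.743), in the authors' deposited table. DDIT4-AS1, on the opposite strand, covers 41.2% of its exon bases in GENCODE v29, and its part in the result was not tested. DDIT4 (ENSG00000168209) lies on chromosome 10 of GRCh38, from 72273920 to 72276036 on the plus strand.

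VLDLR, a lipoprotein receptor and known ATF4 target, was higher in all 4 comparisons and called in 3. In clone I4 it had 0.646 RPKM with doxycycline, against 0.487 RPKM without, in I4-N, and 0.931 against 0.667 RPKM in I4-B (1.33-fold with q = 0.0607 and 1.40-fold with q = 0.000585 in the authors' deposited table). In H6 it had 1.32 RPKM with doxycycline, against 0.952 RPKM without, in H6-N, and 1.64 against 1.28 RPKM in H6-B (1.39-fold with q = 4.77e-06 and 1.29-fold with q = 0.0177 in the authors' deposited table). Its levels were low, under 1 RPKM in I4. CHAC1, which degrades glutathione and is a sensitive ATF4 target, was 1.31-fold higher in I4-N, 1.28-fold higher in H6-N and H6-B and 1.04-fold lower in I4-B, with no call at higher group means of 1.18 to 3.49 RPKM in the authors' deposited table.

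EIF4EBP1, the 4E-BP1 inhibitor of cap-dependent translation, was lower by 1.08-fold to 1.21-fold throughout and fell in H6-N (q = 0.0307) and I4-B (q = 0.00528) of the authors' deposited table. SESN2, a leucine-sensing inhibitor of mTORC1, and STC2, a secreted glycoprotein, were called nowhere. Both were lower in clone I4 and higher in H6 in both experiments, with folds of 1.11 to 1.21 in size for SESN2 and 1.05 to 1.19 for STC2 in the authors' deposited table.

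**Figure D2:**
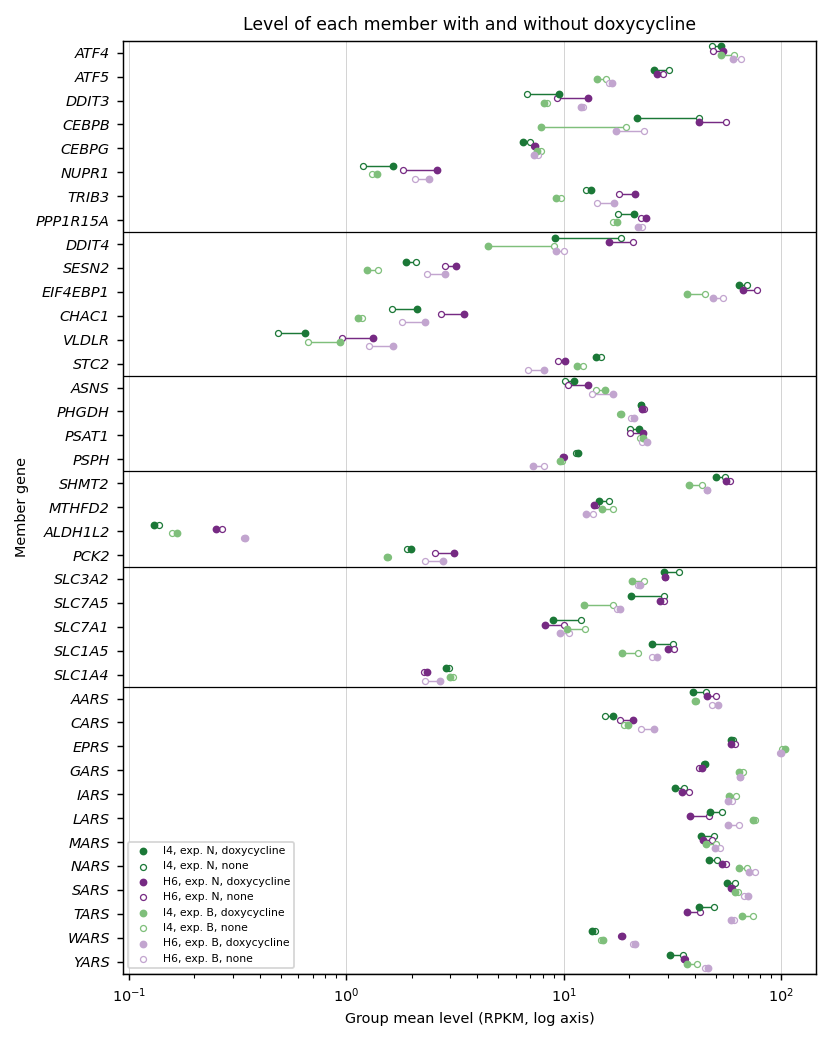
Group mean levels in RPKM (log axis) of each gene (rows, grouped by role) with doxycycline (filled) and without (open), with a colour for each clone and experiment; the lower mean of a pair is the one implied by the fold. CEBPB and DDIT4 show wide pairs in I4, and most synthetase pairs nearly coincide.

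Of the 4 genes of serine and asparagine synthesis, 1 was called. ASNS, asparagine synthetase and a classical ATF4 target, rose in H6 in both experiments. It had 12.9 RPKM with doxycycline, against 10.4 RPKM without, in H6-N (1.24-fold higher, q = 0.000776 in the authors' deposited table). In H6-B it had 16.9 RPKM with doxycycline, against 13.5 RPKM without (1.25-fold higher, q = 0.005 in the authors' deposited table). AC079781.5, annotated on the same strand, covers 44.6% of the exon bases of ASNS in GENCODE v29, so that neither kit separates their reads there; its part was not tested. In I4 ASNS was 1.10-fold higher both times, without a call (q = 0.318 and 0.324 in the authors' deposited table). PHGDH, PSAT1 and PSPH, the successive enzymes of serine synthesis, were called nowhere. PHGDH lay within 1.03-fold each time, PSAT1 came nearest to a call in H6-N (1.15-fold higher, q = 0.052), and PSPH had folds of 1.01 to 1.12 in size in the authors' deposited table.

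Among the mitochondrial enzymes only PCK2 was called. SHMT2 and MTHFD2, which pass the serine carbon to mitochondrial folate, were lower in all 4 comparisons, by 1.01-fold to 1.14-fold and by 1.02-fold to 1.13-fold, with no call in the authors' deposited table. ALDH1L2, the mitochondrial formyl-folate dehydrogenase, had higher group means of 0.137 to 0.342 RPKM in the authors' deposited table, and small differences are not detectable at such levels. PCK2, the mitochondrial PEP carboxykinase, was 1.22-fold higher in H6-N (q = 0.0144) and H6-B (q = 0.346) and within 1.05-fold in I4 in the authors' deposited table.

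The 5 amino acid transporters of this subgroup fell mainly in clone I4. Of 5, 4 fell in I4-N, 1 in H6-N, 3 in I4-B and none in H6-B, and none rose. The median log2 fold of the 5 was -0.33 in I4-N, -0.06 in H6-N, -0.24 in I4-B and 0.04 in H6-B. That of all genes of at least 1 RPKM was within 0.01 of 0 in each. The 15 further transporters counted below did not follow this order in experiment N. Of these 15, 4 fell in I4-N and 5 in H6-N, with medians of -0.19 and -0.26. In experiment B, 2 fell and 1 rose in I4-B and 1 fell in H6-B, with medians of -0.16 and -0.14. Only 6 or 7 of the 15 reached 1 RPKM in each comparison. SLC7A5, the LAT1 carrier of leucine and other large neutral amino acids, had 20.3 RPKM with doxycycline, against 28.9 RPKM without, in I4-N (1.42-fold lower, q = 9.12e-12 in the authors' deposited table). In I4-B it had 12.4 RPKM with doxycycline, against 16.8 RPKM without (1.36-fold lower, q = 8.1e-08 in the authors' deposited table). In H6 the levels nearly coincided, at 27.7 RPKM with doxycycline against 28.9 RPKM without in H6-N and 18.1 against 17.6 RPKM in H6-B of the authors' deposited table. SLC3A2, the CD98 heavy chain that takes LAT1 to the membrane, was 1.17-fold lower in I4-N (q = 0.0111), 1.13-fold lower in I4-B (q = 0.0954) and within 1.02-fold in H6 in the authors' deposited table.

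SLC7A1, the carrier of arginine and lysine, fell in 3 comparisons. It was 1.34-fold lower in I4-N (q = 7.75e-08), 1.23-fold lower in H6-N (q = 0.000488), 1.22-fold lower in I4-B (q = 0.00144) and 1.10-fold lower in H6-B (q = 0.489) in the authors' deposited table. SLC1A5, the ASCT2 glutamine carrier, was 1.25-fold lower in I4-N (q = 0.0143) and 1.18-fold lower in I4-B (q = 0.0131) and was not called in H6 in the authors' deposited table. AC008622.2, on the opposite strand, covers 23.4% of the exon bases of SLC1A5, and its part was not tested. SLC1A4, its serine-carrying relative, was called nowhere, at higher group means of 2.35 to 3.09 RPKM in the authors' deposited table.

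Cytosolic tRNA synthetases, which join each amino acid to its tRNA, had small folds. In I4-N 4 of 12 fell, LARS, MARS, TARS and YARS, and none rose. In H6-N LARS and TARS fell and CARS rose. Among all genes of at least 1 RPKM, 12.5% fell and 10.3% rose in I4-N, and 10.5% fell and 9.87% rose in H6-N. The counts of H6-N are near these shares. LARS was 1.14-fold lower in I4-N (q = 0.0329) and 1.21-fold lower in H6-N (q = 0.00078), and TARS 1.17-fold (q = 0.0102) and 1.14-fold lower (q = 0.0499), in the authors' deposited table. MARS and YARS were each 1.15-fold lower in I4-N (q = 0.0207 and 0.0249) in the authors' deposited table. CARS was 1.16-fold higher in H6-N (q = 0.0299) and 1.14-fold higher in H6-B (q = 0.166) in the authors' deposited table. AARS, EPRS, GARS, IARS, NARS, SARS and WARS had folds of at most 1.15 in size. In experiment B none of the 12 was called. There 9.14% of all genes of at least 1 RPKM fell and 10.3% rose in I4-B, and 5.46% fell and 5.03% rose in H6-B. TARS, for one, was 1.12-fold lower in I4-B (q = 0.0989 in the authors' deposited table). The difference between experiments was not tested. The median log2 fold of the 12 was -0.13 in I4-N, -0.05 in H6-N, -0.06 in I4-B and 0.01 in H6-B.

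**Figure D3:**
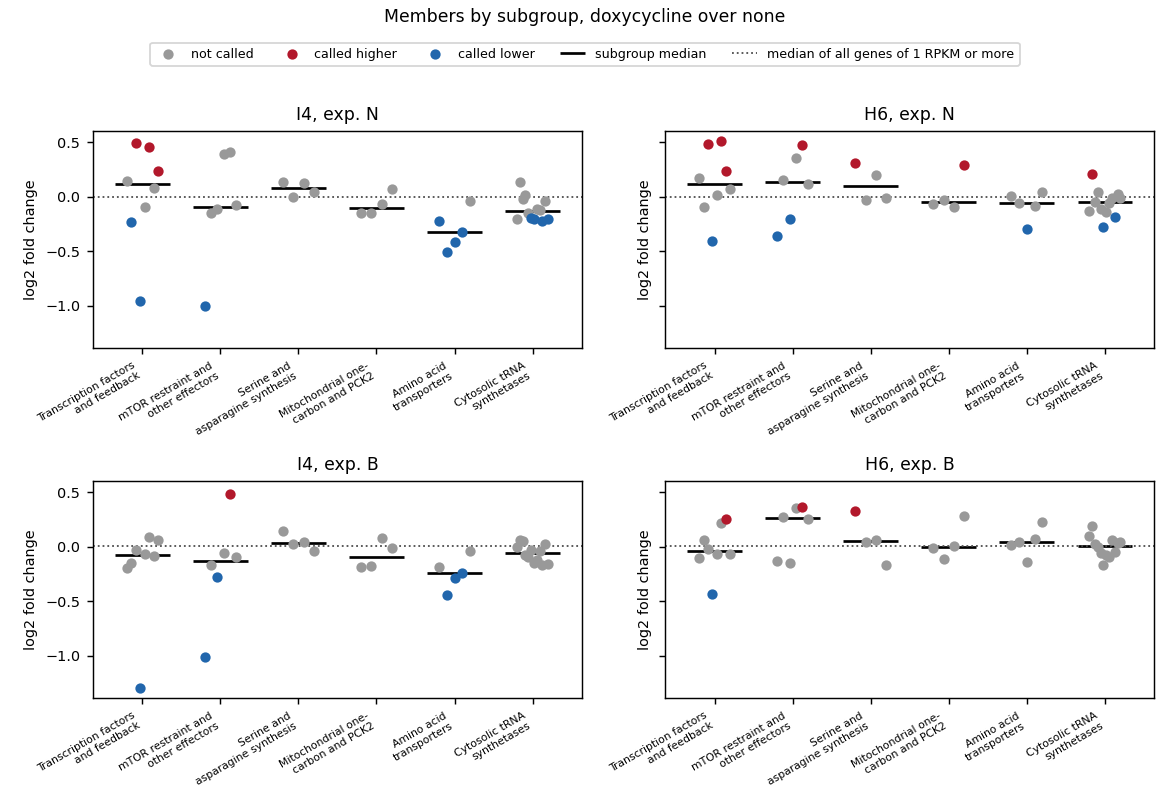
Log2 fold (doxycycline over none) of each gene by role, 1 panel per comparison, with black bars for subgroup medians and a dotted line for the median of all genes of at least 1 RPKM. The transporters lie below the line in both I4 panels, with medians of -0.33 and -0.24, and around it in both H6 panels.

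For most of the 39 genes the log2 fold was lower in I4 than in H6. That held for 30 of 39 (76.9%) in experiment N and for 33 (84.6%) in experiment B, against 51.3% and 52.2% of 10324 genes of at least 1 RPKM. It held for 29 (74.4%) in both experiments, against 38.4% of these genes. The gap, I4 minus H6 on the log2 scale, was -0.64 in experiment N and -0.89 in experiment B for DDIT4, -0.55 and -0.87 for CEBPB, and -0.45 and -0.48 for SLC7A5. These gaps were not tested, since the table holds no values per library. Across the 39 genes, which are not independent, the log2 folds of experiments N and B gave a Pearson r of 0.84 for I4 (Spearman rho 0.73) and of 0.74 for H6 (rho 0.65). Between the clones r was 0.86 in experiment N (rho 0.84) and 0.60 in experiment B (rho 0.46). The signs of experiments N and B were the same for 71.8% of the 39 in I4 and 64.1% in H6, against 72.7% and 74.8% of 10324 genes of at least 1 RPKM. Those of the clones were the same for 82.1% in experiment N and 64.1% in experiment B, against 77.0% and 70.8% of genes.

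**Figure D4:**
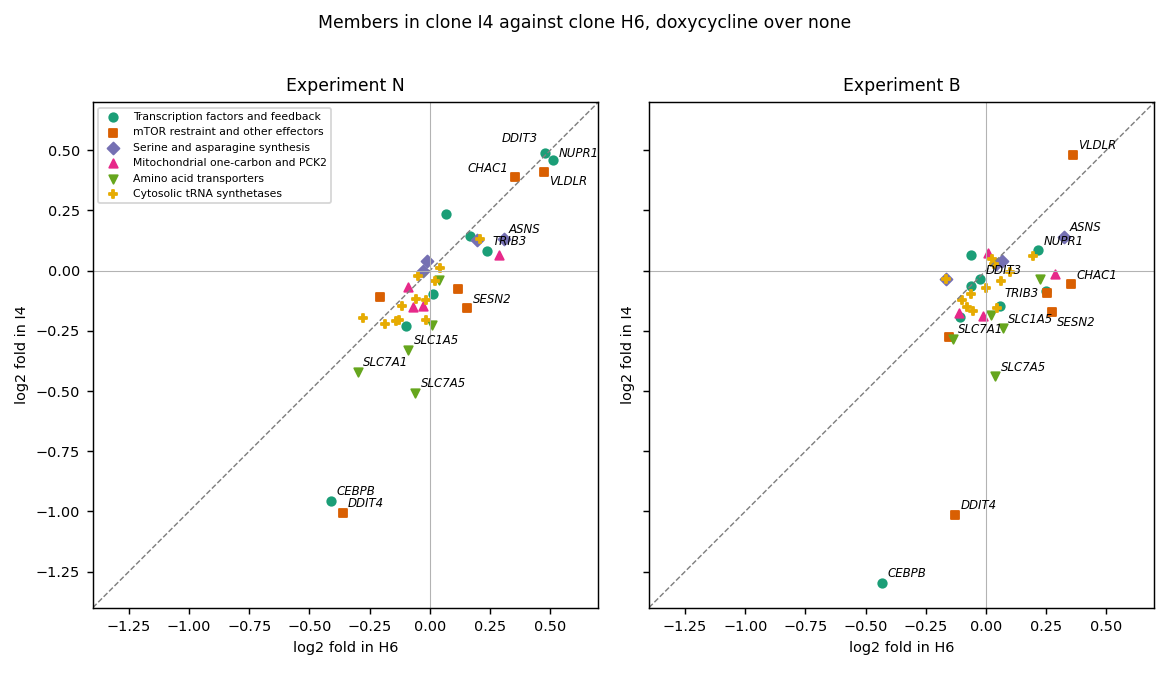
Log2 fold in clone I4 (y axis) against clone H6 (x axis), doxycycline over none, 1 point per gene and 1 panel per experiment; the dashed line marks equal folds. CEBPB, DDIT4 and SLC7A5 lie below the line in both panels, with gaps of -0.45 to -0.89.

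ATF4 and its C/EBP partners bind the C/EBP-ATF response element, searched here by the core TGATGNAA (TTNCATCA on the other strand). RefSeq promoters on GRCh38.p14, from 250 bases before to 50 after a start, were found for 32 of the 39 genes. The core stands in 14 of these (43.8%), against 1217 of 27305 genes (4.46%). Per promoter the shares were 14 of 51 (27.5%) and 3.62% of 35116. The 39 were chosen by name as genes of the ATF4 pathway and of amino acid supply. The excess over all genes therefore follows the choice of the list and is no result of these cells. The 14 are 7 of 10 synthetases (AARS, CARS, GARS, IARS, MARS, NARS and TARS), 4 of 5 transporters (SLC3A2, SLC7A1, SLC1A5 and SLC1A4), ASNS, CHAC1 and CEBPG. Windows of 30 bases are shown for genes that hold the core and rose (ASNS, CARS), fell (SLC7A1, TARS) or were not called (CHAC1, GARS), 5′ to 3′ on the strand of the gene, with the core in capitals.
ASNS (chr7:97872458-97872487, minus strand): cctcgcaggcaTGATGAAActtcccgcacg
CARS (chr11:3057407-3057436, minus strand): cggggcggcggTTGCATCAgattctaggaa
SLC7A1 (chr13:29595663-29595692, minus strand): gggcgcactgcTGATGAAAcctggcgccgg
TARS (chr5:33440956-33440985, plus strand): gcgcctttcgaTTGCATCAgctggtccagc
CHAC1 (chr15:40953251-40953280, plus strand): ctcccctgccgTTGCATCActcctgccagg
GARS (chr7:30594834-30594863, plus strand): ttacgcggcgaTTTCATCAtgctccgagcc

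ASNS and SLC7A1 carry the same letters in the core, while ASNS rose in H6 and SLC7A1 fell in I4 and in H6-N. The core lies 68 to 61 bases before the start in ASNS and at bases 8 to 15 after it in SLC7A1. Of the 14 genes with the core, 0 rose and 5 fell in I4-N, 2 rose and 2 fell in H6-N, 0 rose and 2 fell in I4-B, and 1 rose and 0 fell in H6-B. Of the 18 without it, 2 rose and 4 fell in I4-N, 4 rose and 2 fell in H6-N, 1 rose and 3 fell in I4-B, and 2 rose and 1 fell in H6-B. The shares of all genes that rose and fell are those given above. The median log2 fold of the 14 was -0.13 in I4-N, -0.02 in H6-N, -0.09 in I4-B and 0.01 in H6-B, against -0.03, 0.05, -0.06 and 0.04 for the 18. A match is a description of letters and shows no binding. CEBPB, DDIT4, SLC7A5 and VLDLR have no match in these windows.

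Other genes of the pathway were counted in 9 lists. Not every listed gene reached 1 RPKM: in each comparison 11 of 15 further ATF4 targets did, and 6 or 7 of 15 further transporters. Of 11 other one-carbon genes 7 or 8 did, and of 6 nutrient-sensing genes 4. The background below holds only genes of at least 1 RPKM, so it is unlike these lists in level. The counts are to be read against the share of all genes of at least 1 RPKM that rose (10.3% in I4-N, 9.87% in H6-N, 10.3% in I4-B and 5.03% in H6-B) or fell (12.5%, 10.5%, 9.14% and 5.46%), and a count of 1 or 2 in a short list differs little in number from what these shares give. Of 4 eIF2 kinases only EIF2AK2 was called, 1.17-fold lower in I4-N (q = 0.0113 in the authors' deposited table). The next list held 9 genes for eIF2, its exchange factor eIF2B and the phosphatase subunit PPP1R15B; of these 1 rose and 3 fell in I4-N, 2 fell in H6-N, none was called in I4-B and 1 fell in H6-B. Of 15 further ATF4 targets, 3 rose in I4-N, 5 in H6-N, 1 in I4-B and 2 in H6-B, and none fell. GDF15, a stress-induced secreted hormone, rose 1.31-fold in I4-N (q = 0.00566), 2.46-fold in H6-N and 2.65-fold in H6-B (q listed as 0 in both), and was 1.04-fold higher without a call in I4-B, in the authors' deposited table. SLC7A11, the cystine carrier that NRF2 also drives, rose in all 4 comparisons of the authors' deposited table, 1.28-fold to 1.59-fold.

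No synthetase outside the 39 rose. Of 11 further cytosolic synthetases and scaffold proteins, 4 fell in I4-N, 4 in H6-N, 1 in I4-B and none in H6-B. Of 17 mitochondrial synthetases, 5 fell in I4-N, 5 in H6-N, 2 in I4-B and 1 in H6-B, the counts of experiment B being near the shares of all genes. The scaffold gene AIMP2 was 1.19-fold to 1.29-fold lower, CARS2 1.11-fold to 1.20-fold lower and VARS2 1.12-fold to 1.26-fold lower, each called in 3 comparisons of the authors' deposited table. Of 15 further transporters, 4 fell in I4-N, 5 in H6-N, 2 in I4-B and 1 in H6-B, while 1 rose, in I4-B. SLC1A3, a glutamate and aspartate carrier at higher group means of 0.393 to 1.07 RPKM, fell 1.88-fold to 2.10-fold in all 4 comparisons of the authors' deposited table. SLC7A6, an exchanger of cationic and neutral amino acids, was 1.09-fold to 1.32-fold lower and called in 3 comparisons of the authors' deposited table.

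Of 9 genes of glutamine, proline and arginine metabolism, 3 rose in I4-N, 2 in H6-N, 3 in I4-B and 1 in H6-B, and none fell. GLUL, glutamine synthetase, was 1.39-fold higher in I4-N, 1.13-fold in H6-N, 1.53-fold in I4-B and 1.24-fold in H6-B of the authors' deposited table, with a call in each but H6-N (q = 0.0669). Of 11 other one-carbon genes, 2 rose and 3 fell in I4-N, 1 rose and 1 fell in H6-N, 1 fell in I4-B and 1 rose in H6-B. Of 6 nutrient-sensing genes, the SESN2 relative SESN1 rose in H6-N (1.34-fold, q = 0.0474 in the authors' deposited table), and there was no other call.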

How the data were processed

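Poly(A)-selected RNA of 23 wells was sequenced, per the labels' protocols, with an unstranded kit in experiment N and a strand-specific one in experiment B. Per the submitters' processing notes the build is hg38. The aligner, the counter and the test behind the deposited q-values have no source here. The authors deposited 1 table with 12 value columns. The level is the authors' higher group mean, whose unit was read from the values as RPKM: level times GENCODE v29 exon length falls on steps of 1 read in very low genes. The fold is the authors' deposited signed fold change, a score whose direction was read from PARG. The authors' deposited q-value, an adjusted p-value, was used as given. With no value per library, the planned count models were not run. All wells of a group come from 1 clone, so q can reflect no more than the spread between wells.

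Log2 folds, calls at q under 0.05, counts, medians and implied lower means were computed with Python 3.11.15 and pandas 2.3.3, tested on a made-up table. Depth came from read steps shared by at least 10 genes. Synthetases were matched to current RefSeq symbols (AARS to AARS1 and the like). The 39 genes, their 6 subgroups and the 9 further lists were chosen with earlier results of these data known. All 39 are named. Genes of the further lists are named where called with the same sign in at least 3 comparisons, except 1 that is not reported here; EIF2AK2 and SESN1 were named after their values were seen. Exons of 16 of the 39 overlap a gene on the opposite strand, those of ATF5, DDIT3, ASNS and MARS overlap one on the same strand, and 12 have named pseudogene copies, so part of their reads may be shared.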

Additional observations from a re-analysis of the deposited data

How the results depend on the processing

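No paired analysis was possible because the deposited table holds no value per library; for the same reason leaving out single replicates, DESeq2 and other scalings were not run. Of 40 recounts of risen or fallen genes, 32 stayed within 1.5 times the main count. At a q-value under 0.01, 1 gene rose and 4 fell in I4-N and 1 rose in H6-B. With a log2 fold of at least 0.25 in size as well, 5 fell in I4-N. At a q-value under 0.1, 10 fell in I4-B, and VLDLR rose in all 4 comparisons, which makes 1. A level of at least 5 RPKM left 4 risen in H6-N; a level of at least 1 or of 5 RPKM left 0 in I4-B. Without I4-N 1 gene, VLDLR, rose in the other 3 comparisons, and without H6-B 3 fell in the other 3 (CEBPB, DDIT4 and SLC7A1). Of 96 recomputed subgroup medians 89 moved by less than the SD of that subgroup over the 4 comparisons. The exceptions were the regulators in I4-B by their mean (-0.21); the effectors at 5 RPKM or more (-0.21 in H6-N, -0.13 in H6-B), where few genes are left; and the mitochondrial enzymes by their mean in H6-N (0.025), at 1 and 5 RPKM in I4-B (-0.17 and -0.18) and at 5 RPKM in H6-B (-0.061). Small folds were called least often in H6-B, which has only 2 untreated wells and the lower depth of experiment B. I4-B has the depth of that experiment and 3 untreated wells. Among genes at 10 to 100 RPKM it called 1.52% at log2 folds of 0.1 to 0.2 in size and 90.1% at 0.2 to 0.3. H6-B called 0 and 41.3% there, I4-N 5.40% and 76.5%, and H6-N 4.05% and 86.8%. The parts of well number, depth and clone were not tested.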

Other observations

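In the wells without doxycycline, several stress genes stood lower in clone I4 than in clone H6. This is by the group means that the authors' deposited table states or implies. With a ratio under 0.75 in both experiments (a limit chosen after the values were seen), 8 of the 39 genes were lower in I4, against 5.16% of 10324 genes of at least 1 RPKM: DDIT3, NUPR1, TRIB3, SESN2, CHAC1, VLDLR, ALDH1L2 and PCK2. ALDH1L2, with higher group means of 0.137 to 0.342 RPKM, and VLDLR, with 0.487 and 0.667 RPKM in untreated I4, lie under the floor of 1 RPKM of that background. VLDLR in I4 was 0.51 and 0.52 times its level in H6 in experiments N and B, CHAC1 0.59 and 0.65 times, and TRIB3 0.70 and 0.68 times. STC2 was the only one past the inverse of that limit in both, at 1.58 and 1.79 times its level in H6, where 3.40% of genes were. ATF4 is not among them. Each clone is 1 line, the group means carry no error here, and none of these ratios was tested.

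Levels also differed between experiments. The higher group mean was greater in experiment B than in experiment N in both clones for 19 of the 39 genes, lower in both for 18, and greater in 1 clone and lower in the other for 2. For example, the higher group mean in experiment B was 1.73 and 1.64 times that in experiment N for EPRS in I4 and H6, 1.72 and 1.58 times for IARS and 1.52 and 1.44 times for TARS, while it was 0.46 and 0.42 times for CEBPB, 0.49 and 0.48 times for DDIT4 and 0.51 and 0.59 times for ATF5 in the authors' deposited table. Passage, kit and sequencing centre changed together between the experiments and cannot be told apart.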
